A study of Mus musculus with 16 samples.

Results

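Collagen genes were examined in mature adipocytes and preadipocytes of mouse gonadal fat after early life stress and dietary treatment. They were taken as every protein-coding gene of the deposited count table whose name is Col, digits, a, digits, which gave 44 of the 54532 genes listed. The study compared female C57BL/6 mice, an inbred laboratory strain, raised under maternal separation and early weaning (MS, the early life stress) with undisturbed controls (C). MS pups were taken from the dam daily from postnatal day 2 to 16 and weaned on day 17, and control pups were weaned on day 21. Tissue was digested with collagenase, the mature adipocyte fraction was parted from the stromal vascular fraction, and magnetic sorting enriched the cells further. Bulk RNA sequencing covered 16 libraries in 6 groups: mature adipocytes of MS (3) and control (3) mice on a high-fat diet, preadipocytes of MS (4) and control (4) mice on the high-fat diet, and preadipocytes of 1 MS and 1 control library on a low-fat diet. The sources used here give neither the ages at harvest nor the composition of the diets nor the antibodies of the sort. Whether each library is a different animal, or a pool, is not stated, and p-values therefore reflect the spread among these libraries, part of which may be technical.

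Collagens are secreted proteins built from 3 alpha chains wound into a triple helix, each chain encoded by its own gene. Fibrillar collagens (types I, III and V here) form the tensile fibres of connective tissue, type IV forms the sheet of basement membranes, and type VI forms beaded filaments around cells. FACIT collagens sit on the surface of fibrils, multiplexins (types XV and XVIII) link basement membranes to the matrix beneath, and a few collagens span the cell membrane. In fat, stromal progenitors are the known main producers of interstitial collagen, while each adipocyte is wrapped in its own basement membrane.

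Library totals ran from 14182130 to 23368821 counts, with 15344 to 20964 genes detected in adipocyte libraries and 23004 to 26053 in preadipocyte libraries. Libraries 1 and 3 of the control high-fat preadipocytes differed far less than other pairs: 21.4% of genes differed beyond counting noise (chi-square test, p below 0.05). The other 17 pairs of libraries within a group stood at 50.5% to 79.5%. Libraries 1 and 3 (the near-identical pair) were therefore summed and counted as 1 sample (n = 3 for that group). They still differed beyond sampling noise, with a mean chi-square of 4.02 per gene, where counting noise alone gives about 1. Control adipocyte libraries 1 and 3 sampled rare transcripts poorly, with 1.15 and 0.637 times as many genes at 1 to 5 counts as at 6 to 15, and MS adipocyte library 2 was the next lowest at 1.55, against 1.82 to 2.23 in the other libraries. They detected 18091, 15344 and 18400 genes. In addition, MS high-fat preadipocyte libraries 3 and 4 had the highest macrophage marker levels of any preadipocyte library. Adipocyte markers followed the labels: the 10 genes summed to 6950 to 28562 FPKM (fragment counts scaled for gene length and sequencing depth) in adipocyte libraries, against 83.2 to 246 FPKM in preadipocyte libraries. Other cells were present in both fractions, since 10 macrophage markers summed to 1103 to 3542 FPKM in adipocyte libraries and 754.9 to 4353 FPKM in preadipocyte libraries, and urothelial markers to 522 FPKM in each of the near-identical pair.

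Collagen genes took 0.684%, 0.523% and 0.961% of all counts in MS adipocytes and 0.446%, 0.846% and 0.910% in control adipocytes. In high-fat preadipocytes they took 3.41%, 4.24%, 5.56% and 5.82% of counts in MS libraries, against 2.44%, 5.10%, 2.45% and 5.56% in control libraries 1 to 4. The low-fat preadipocyte libraries stood at 4.12% (MS) and 4.10% (control). Every adipocyte library therefore lay below every preadipocyte library, while MS and control libraries overlapped in each fraction. The 95% Wilson intervals of these shares were narrow, for example 0.680% to 0.687% in MS adipocyte library 1, and cover counting error only. Bulk RNA cannot tell fewer cells of a type from less RNA per cell.

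**Figure D1:**
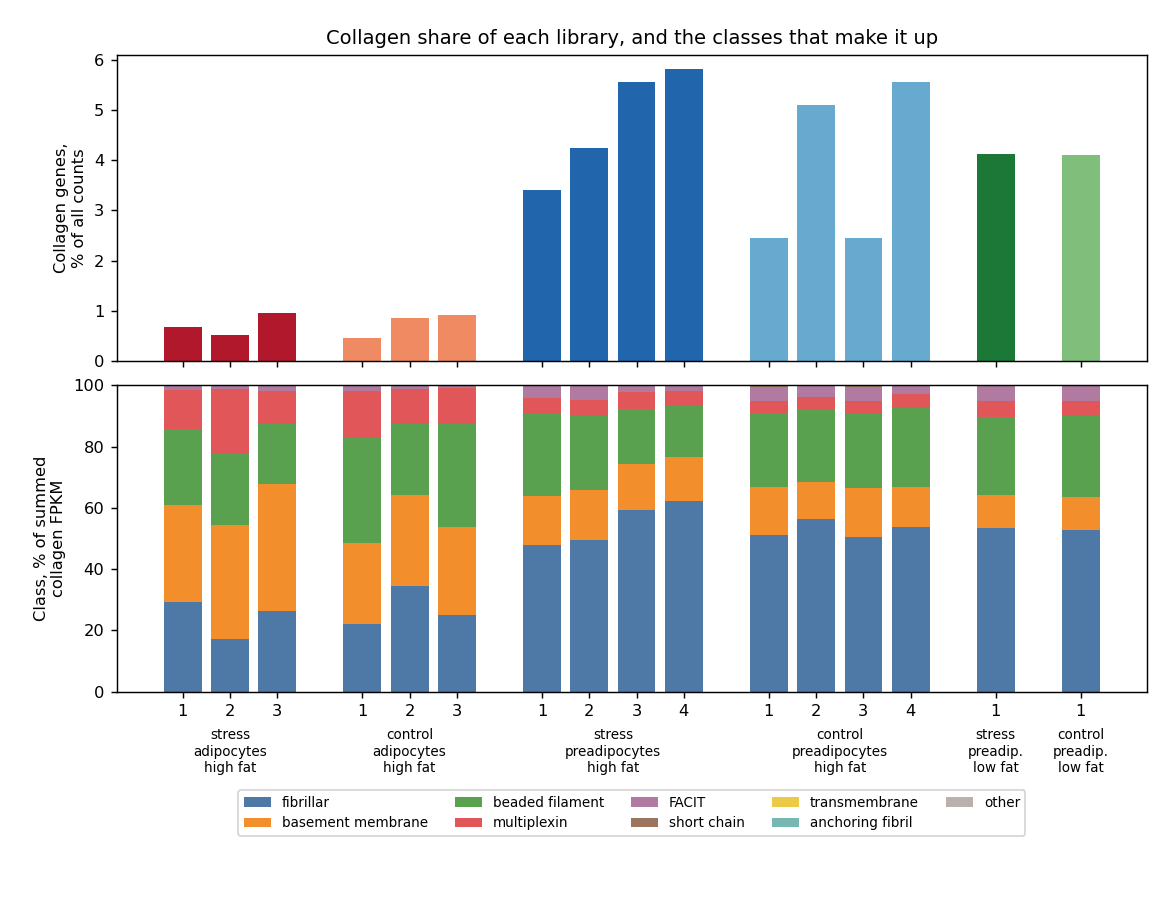
Top, the percent of each library's counts from the 44 collagen genes, 1 bar per library, numbered by replicate under its group. Bottom, the share of each collagen class in the summed collagen FPKM of that library. Adipocyte libraries stayed between 0.446% and 0.961%, and basement membrane (orange) and multiplexin (red) genes made up a larger share of that smaller total. Control preadipocyte libraries 1 and 3 are the near-identical pair.

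The mix of collagens differed as well. Fibrillar genes made up 24.3% ± 6.35 of the summed collagen FPKM in MS adipocytes and 27.2% ± 6.51 in control adipocytes (SD, n = 3 each), against 54.7% ± 7.18 in MS (n = 4) and 53.6% ± 2.82 in control (n = 3) high-fat preadipocytes. Basement membrane genes made up 36.8% ± 5.02 in MS adipocytes and 28.4% ± 1.60 in control adipocytes, against 15.4% ± 0.935 in MS and 13.7% ± 2.13 in control high-fat preadipocytes. Multiplexins stood at 14.8% ± 5.79 and 12.7% ± 2.37 in MS and control adipocytes, against 5.18% ± 0.280 and 4.24% ± 0.322 in MS and control preadipocytes. Within every class named here, no adipocyte library fell in the range of the preadipocyte libraries. Beaded filament (type VI) genes overlapped, at 22.7% ± 2.57 and 30.4% ± 6.41 in MS and control adipocytes and 21.5% ± 4.93 and 24.4% ± 1.005 in MS and control preadipocytes. The collagen with the highest level was Col3a1, the single chain of type III collagen, in all 10 preadipocyte libraries, whereas in adipocytes it was Col4a1, the alpha 1 chain of type IV collagen, in 4 libraries and Col6a1, a type VI chain, in 2.

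The comparison of fractions asked which collagens differed between mature adipocytes and preadipocytes of high-fat mice. Of the 44 genes, 36 passed the expression filter, and 33 of those were lower in adipocytes, with none higher (edgeR quasi-likelihood test with Benjamini-Hochberg adjustment over all genes, threshold 0.05, early life treatment as a covariate). Among all 16679 genes tested, 61.3% were called, 26.4% higher and 35% lower. A gene can pass the filter through its preadipocyte level alone, so the count of members describes these genes and is not a test of the family. Their median log2 fold change was -2.87, against -0.25 over all genes tested. FPKM of all 6 adipocyte libraries lay below all 8 high-fat preadipocyte libraries for 25 members, 24 of them among the 36 tested, where 21.9% of all genes tested did so. The range was wide: 9 members fell by more than 4 on the log2 scale (over 16-fold), and 4 of the called members by less than 2-fold.

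The chains of type III and type I collagen, the bulk of the interstitial fibre, were all lower in adipocytes. Col3a1 (chromosome 1, 45311538 to 45349706 on GRCm38) had 71.5, 35.7 and 88.4 FPKM in MS adipocytes and 22.8, 134 and 97.4 FPKM in control adipocytes. It had 844, 1206, 1918 and 2042 FPKM in MS preadipocytes and 585, 1479, 564 and 1535 FPKM in control preadipocytes on the same diet. No library of one fraction reached the other, and Col3a1 was 18.0-fold lower in adipocytes (log2 fold change -4.17 ± 0.47 standard error, adjusted p = 3.41e-06). Col1a2, the second chain of type I collagen, had 14.6 to 53.0 FPKM in adipocytes (median 29.0, 6 libraries), against 197 to 568 FPKM in preadipocytes (median 458, 8 libraries), 14.3-fold lower. Col1a1, the chain that enters each type I molecule in a pair, had 28.4 to 118 FPKM in adipocytes (median 65.3), against 304 to 1063 FPKM in preadipocytes (median 675), 10.48-fold lower (-3.39 ± 0.36, adjusted p = 2.15e-06).

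The type V chains, which regulate the diameter of type I fibrils, did not fall alike. Col5a1 and Col5a2 were 7.52-fold and 7.15-fold lower (-2.91 ± 0.27 and -2.84 ± 0.26). Col5a3 had 71.0, 53.6 and 81.8 FPKM in MS adipocytes and 56.9, 71.9 and 73.4 FPKM in control adipocytes, against 109 to 217 FPKM in preadipocytes, and was 2.36-fold lower (-1.24 ± 0.20, adjusted p = 7.61e-05). It was thus the fibrillar gene with the smallest change of the 9 tested, with groups that still did not overlap. The minor fibrillar genes Col27a1 (-3.67 ± 0.35), Col24a1 (-3.65 ± 1.06) and Col11a2 (-2.55 ± 0.56) were lower too. Col24a1 rested on few reads, 10 in 1 of 6 adipocyte libraries and 214 over 10 preadipocyte libraries. Col11a2 missed the threshold in control libraries alone (adjusted p = 0.119).

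**Figure D2:**
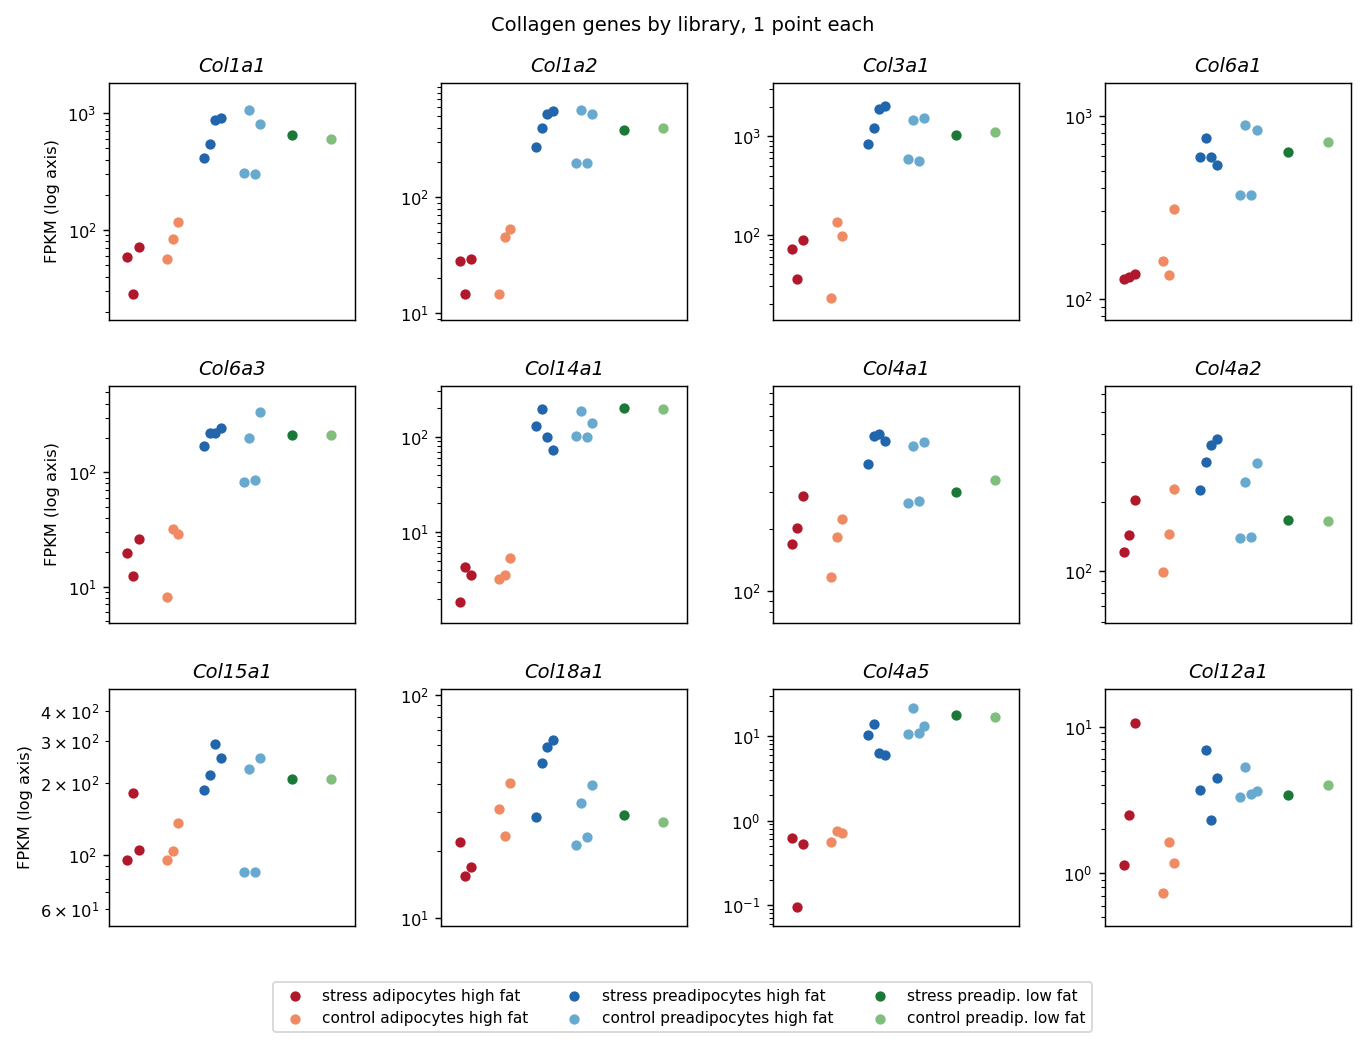
FPKM of 12 collagen genes on a log axis, 1 point per library, with groups ordered left to right as in the legend read down its columns. Col3a1, Col1a1, Col1a2 and Col14a1 show a wide gap between adipocytes and preadipocytes, whereas Col4a2, Col15a1 and Col18a1 overlap. The 2 low points of control high-fat preadipocytes in Col1a1 and Col3a1 are the near-identical libraries 1 and 3.

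Type IV collagen divided into the major pair, which makes the network of most basement membranes, and the minor chains. Col4a1 had 170.0, 201 and 287 FPKM in MS adipocytes and 118, 184 and 224 FPKM in control adipocytes. It had 409, 560.1, 573 and 532 FPKM in MS preadipocytes and 267, 499, 274 and 526 FPKM in control preadipocytes. The fractions overlapped narrowly, and Col4a1 was 2.39-fold lower in adipocytes (-1.26 ± 0.22, adjusted p = 0.000181). Col4a2, its partner chain, had 98.9 to 229.9 FPKM in adipocytes (median 144), against 139.6 to 380.4 FPKM in preadipocytes (median 271), and was 1.72-fold lower (-0.78 ± 0.25, adjusted p = 0.0127). That call was lost without control adipocyte library 1 (-0.60, adjusted p = 0.0543), without MS adipocyte library 2 (-0.62, adjusted p = 0.0671) and without MS preadipocyte libraries 3 and 4 (-0.55, adjusted p = 0.0924), and in control libraries alone (-0.49, adjusted p = 0.346).

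The minor type IV chains, best known from kidney and other specialised basement membranes, were far lower in adipocytes and low in preadipocytes too. Col4a5 had 0.628, 0.0954 and 0.529 FPKM in MS adipocytes and 0.552, 0.762 and 0.723 FPKM in control adipocytes, against 6.00 to 21.2 FPKM in preadipocytes (median 10.7). It was 21.3-fold lower (-4.41 ± 0.38, adjusted p = 2.74e-07). Col4a6, Col4a4 and Col4a3 were lower by -4.70 ± 0.75, -4.16 ± 0.44 and -3.51 ± 0.83 on the log2 scale, at preadipocyte medians of 1.57, 1.09 and 0.436 FPKM. Their adipocyte libraries did not overlap the preadipocyte libraries for any of the 4 genes.

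The 6 type IV genes lie in 3 head-to-head pairs, and both members of each pair were lower in adipocytes. Of the 36 collagens tested 0 had a positive fold change, so the shared direction is not particular to these pairs. Col4a1 (minus strand) and Col4a2 (plus strand) share 22 bases at their starts on chromosome 8, Col4a4 (minus) and Col4a3 (plus) start 71 bases apart on chromosome 1, and Col4a6 (minus) and Col4a5 (plus) start 1308 bases apart on chromosome X. The stretch between the starts of the second pair, and the 120 bases before the start of Col4a6, are shown because each lies between divergent partners. The 120 bases before the start of Col3a1, the most abundant preadipocyte collagen, are set beside them, with the TATAAA motif in capitals. All are GRCm38.p6 sequence of RefSeq promoter windows, read 5′ to 3′ on the strand of the gene named last, from chr1:82586850-82586920 (plus), chrX:141474077-141474196 (minus) and chr1:45311418-45311537 (plus).
Col4a4 to Col4a3: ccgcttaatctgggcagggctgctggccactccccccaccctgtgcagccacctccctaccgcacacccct
Before Col4a6: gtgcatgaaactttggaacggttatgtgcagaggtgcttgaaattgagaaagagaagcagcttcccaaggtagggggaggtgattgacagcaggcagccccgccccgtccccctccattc
Before Col3a1: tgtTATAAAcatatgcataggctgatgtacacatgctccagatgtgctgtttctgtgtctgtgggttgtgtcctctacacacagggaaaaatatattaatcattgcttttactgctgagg
The Col4a4 to Col4a3 stretch is 69.0% G and C, the Col4a6 stretch 55.0% and the Col3a1 stretch 40.0%. In the 250 bases before the start, on either strand, the letters CCAAT occurred in 34.2% of 38 collagen windows (35 genes matched), against 33.8% of all 32851 RefSeq windows, and TATAAA in 13.2% against 12.4%. These are letter matches, not binding sites.

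Type VI collagen, whose alpha 3 chain releases the adipose signal peptide endotrophin, was also uneven between its chains. Here the main chain Col6a3 fell further than Col6a1 and Col6a2. Col6a1 had 127, 131 and 136 FPKM in MS adipocytes and 159, 134 and 308 FPKM in control adipocytes, against 368 to 886 FPKM in preadipocytes (median 596). It was 4.06-fold lower (-2.02 ± 0.24, adjusted p = 5.21e-06). Col6a2 was 3.23-fold lower (-1.69 ± 0.25). Col6a3 had 19.6, 12.4 and 26.3 FPKM in MS adipocytes and 8.03, 32.0 and 28.6 FPKM in control adipocytes, against 82.3 to 334 FPKM in preadipocytes (median 210.1), and was 9.85-fold lower (-3.30 ± 0.38, adjusted p = 4.37e-06). The alternative type VI chains Col6a6, Col6a5 and Col6a4, in tandem on chromosome 9, were lower by -5.34 ± 0.44, -4.27 ± 0.55 and -4.14 ± 1.08. Col6a6 had 4.92 to 21.8 FPKM in preadipocytes (median 12.9), against at most 0.635 FPKM in any adipocyte library, the lowest fold change of any collagen tested. The Col6a4 call was lost in MS libraries alone (-2.05, adjusted p = 0.0984).

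Among FACIT collagens, Col14a1, a fibril-surface collagen and a marker of adventitial fibroblasts, had 1.86, 4.29 and 3.57 FPKM in MS adipocytes and 3.21, 3.58 and 5.30 FPKM in control adipocytes. In MS preadipocytes it had 129, 195, 99.8 and 72.1 FPKM and in control preadipocytes 103, 189, 99.8 and 138 FPKM. It was 36.5-fold lower in adipocytes (-5.19 ± 0.30, adjusted p = 1.27e-08), the smallest p of all collagens. Col9a3 (-3.93 ± 0.64), Col20a1 (-2.70 ± 0.55) and Col16a1 (-2.41 ± 0.30) were lower as well. Col20a1 missed the threshold in control libraries alone (adjusted p = 0.0600), and it overlaps a sense transcript with 119% of its reads, so its counts are uncertain. Col12a1, the FACIT of tendon and muscle, was not called at -0.70 ± 0.51 (adjusted p = 0.245): MS adipocyte library 3 had 10.6 FPKM, against 0.731 to 2.51 FPKM in the other 5 adipocyte libraries and 2.31 to 6.95 FPKM in preadipocytes. Without that library Col12a1 was lower and passed the threshold (-1.52, adjusted p = 0.000876).

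The multiplexins, precursors of the anti-angiogenic fragments restin (Col15a1) and endostatin (Col18a1), were each under 2-fold lower. Col15a1 had 95.7, 183 and 106 FPKM in MS adipocytes and 95.3, 104 and 137 FPKM in control adipocytes. In MS preadipocytes it had 187, 216, 291 and 256 FPKM, and in control preadipocytes 84.9, 230.0, 85.0 and 254 FPKM. The ranges overlapped through the near-identical control libraries, and Col15a1 was 1.77-fold lower (-0.82 ± 0.25, adjusted p = 0.00985). The call did not hold in control libraries alone (-0.71, adjusted p = 0.197), in MS libraries alone (-0.74, adjusted p = 0.0763) or without MS preadipocyte libraries 3 and 4 (-0.65, adjusted p = 0.0559). Col18a1 was 1.699-fold lower (-0.76 ± 0.29, adjusted p = 0.0316), but stood at 0.038 in control libraries alone and -1.31 in MS libraries alone. Leaving out any of 7 single libraries (MS preadipocyte 2, 3 or 4, control adipocyte 1, or MS adipocyte 1, 2 or 3) also ended its call, at -0.51 to -0.73.

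The remaining classes were low in level. The short-chain collagens Col8a2 and Col8a1, found in vessel walls and the cornea, were lower by -4.68 ± 0.58 and -1.78 ± 0.39, and Col7a1, the anchoring fibril of skin, by -3.70 ± 0.60. Of the membrane-spanning collagens, Col17a1 (-2.31 ± 0.78) and Col23a1 (-0.97 ± 0.34) were called and Col13a1 was not (-0.48 ± 0.73, adjusted p = 0.592). The Col17a1 call was lost without the near-identical preadipocyte pair (-1.77, adjusted p = 0.0545). It was also lost without control adipocyte libraries 1 and 3, in control libraries alone and in MS libraries alone. Col23a1 lost its call without MS preadipocyte library 2 (-0.79), control adipocyte library 3 (-0.83) or MS adipocyte library 2 (-0.68). Col28a1, a type VI-like collagen known from peripheral nerve, was 4.80-fold lower (-2.26 ± 0.38), and Col26a1 was not called (-0.88 ± 0.69, adjusted p = 0.282).

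**Figure D3:**
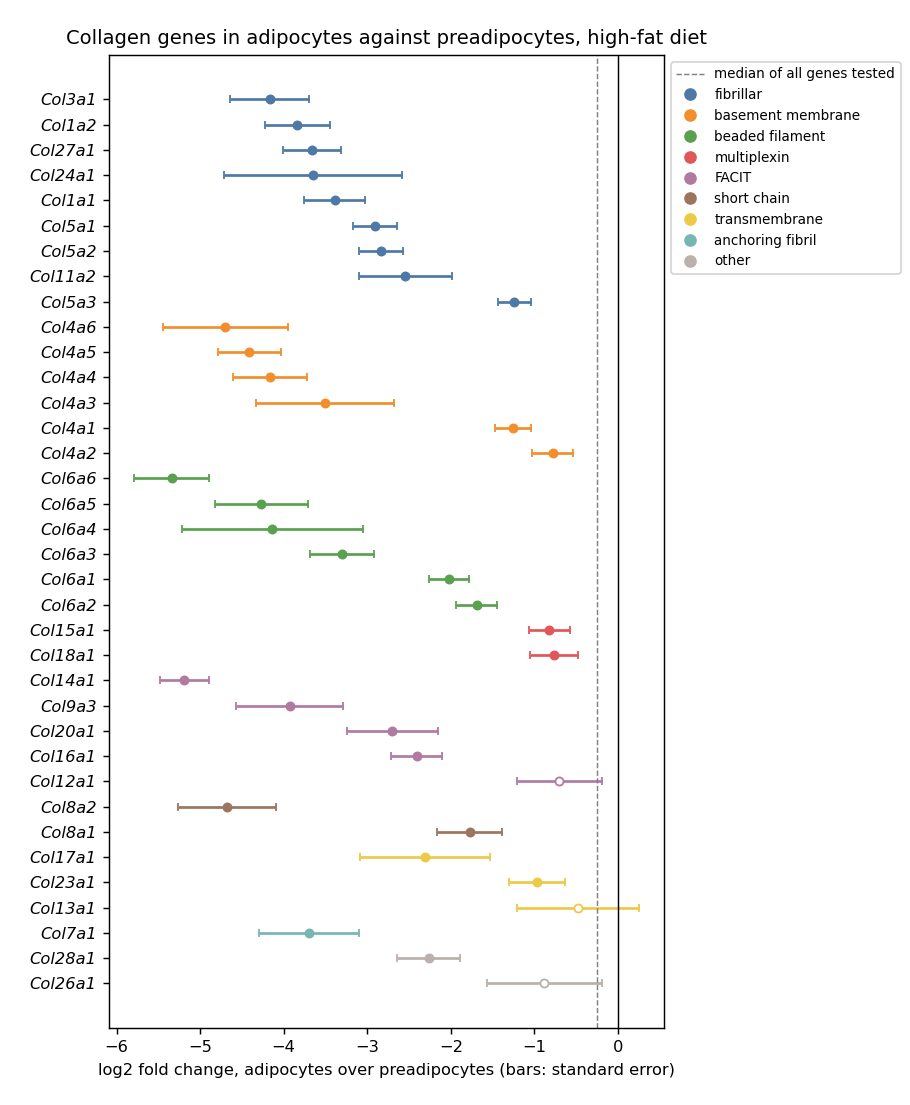
Log2 fold change of adipocytes over high-fat preadipocytes for the 36 collagen genes tested, grouped by class, with bars for the standard error. Filled points passed the adjusted threshold, open points (Col12a1, Col13a1, Col26a1) did not, and the dashed line is the median of all genes tested (-0.25). Within type IV and type VI, Col4a1, Col4a2, Col6a1 and Col6a2 sit to the right of their sister chains.

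Markers of other cells differed between the fractions beside these results. All 10 progenitor markers were lower in adipocytes (median log2 fold change -4.56), summing to 159 to 331 FPKM there against 1663 to 4475 FPKM in preadipocytes. Of 10 endothelial markers 9 were higher and 1 lower, with sums of 214 to 831 FPKM in adipocytes against 48.2 to 238 FPKM in preadipocytes, and of 10 mural cell markers 6 were higher and none lower, with sums of 178 to 539 FPKM against 23.3 to 125 FPKM. No marker of these 3 lists was at 0 throughout a group. Endothelial and mural cells are known producers of type IV, XV and XVIII collagen, and their part in the levels of those genes was not tested.

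Ratios between chains do not depend on the scaling between libraries. The 8 ratios were chosen after the levels had been seen, so they are a description with no test, over 6 adipocyte and 7 high-fat preadipocyte samples. The ratio of Col4a1 to Col1a1 was 2.89, 7.07 and 3.9996 in MS adipocytes and 2.09, 2.19 and 1.91 in control adipocytes, against 0.470 to 1.03 in preadipocytes, a difference of 2.04 in mean log2 ratio. Col15a1 to Col1a1 was 1.16 to 6.43 in adipocytes against 0.216 to 0.448 in preadipocytes, a difference of 2.53. In both ratios the fractions did not overlap. The minor type IV chains Col4a3 to Col4a6 had lower fold changes than Col1a1, so these ratios stand for Col4a1 and Col15a1 and not for their classes.

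Ratios were also taken between chains of the same collagen type. Col1a1 to Col1a2 was 2.07, 1.94 and 2.43 in MS adipocytes and 3.83, 1.84 and 2.22 in control adipocytes, against 1.37 to 1.87 in preadipocytes, a difference of 0.54 in mean log2 ratio with a narrow overlap. Col6a3 to Col6a1 was 0.0504 to 0.239 in adipocytes against 0.224 to 0.453 in preadipocytes, a difference of -1.37. Col6a1 to Col6a2 was 1.45 to 1.89 in adipocytes against 1.93 to 2.20 in preadipocytes without overlap, a difference of -0.34, which was -0.22 in MS libraries alone. Col4a1 to Col4a2 differed by -0.48, which was -0.75 in control and -0.24 in MS libraries alone. Col5a1 to Col5a2 overlapped throughout, with 0.984 to 2.01 in adipocytes and 1.17 to 1.94 in preadipocytes (-0.03). Between types, Col3a1 to Col1a1 differed by -0.97, and by -0.57 without control adipocyte libraries 1 and 3. The level of a ratio depends on the deposited gene lengths, such as 6563 bases for Col1a1 and 12426 for Col1a2, and the difference between fractions does not.

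**Figure D4:**
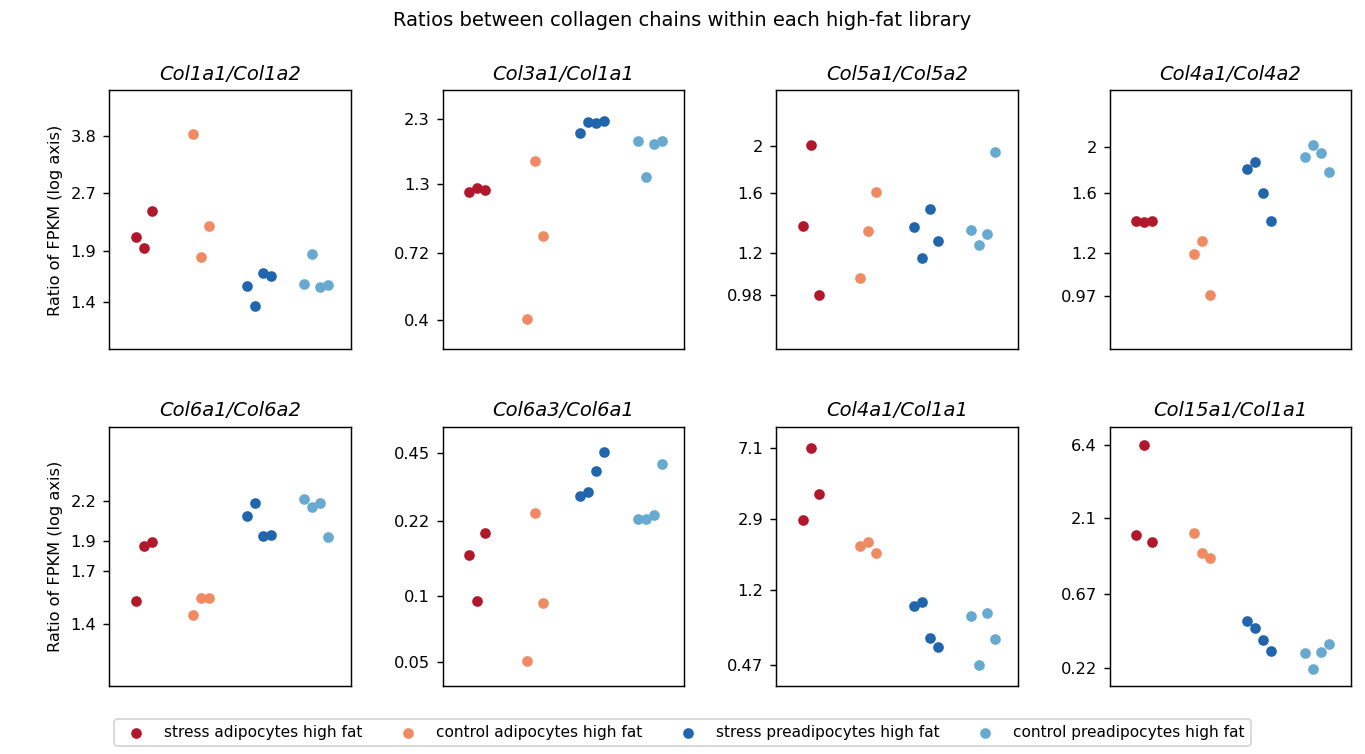
Ratios of FPKM between pairs of collagen genes in each high-fat library, on log axes, 1 point per library, groups ordered left to right as in the legend. Adipocytes lie above preadipocytes without overlap for Col4a1/Col1a1 and Col15a1/Col1a1 and below without overlap for Col6a1/Col6a2, while Col5a1/Col5a2 overlaps throughout.

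Genes that make, modify or bind collagen moved in the same comparison. Of 35 genes for collagen processing, all tested, 26 were lower and 2 higher in adipocytes (median log2 fold change -1.74). Adamts3, which trims procollagen, was at -4.65 ± 0.62 and P4ha3, a prolyl hydroxylase subunit, at -4.38 ± 0.82. Tll2, a tolloid-like protease, had 0 reads in all 6 adipocyte libraries and 3 to 86 reads in the preadipocyte libraries. Of 11 collagen receptors tested, 8 were lower and 1 higher (median -2.42), led by the collagen-binding integrin subunit Itga11 (-5.39 ± 0.41), Antxr1 (-4.69 ± 0.32) and the integrin subunit Itga2 (-3.84 ± 0.42). Of 15 laminins and other partners of type IV collagen in basement membranes, 12 were lower and 1 higher (median -1.68), with the laminin chains Lama2 at -5.11 ± 0.41 and Lama1 at -3.69 ± 1.03. Against the 35% of all genes tested that were lower, these counts are a description of the lists.

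Early life stress was compared within each fraction of the high-fat mice. In preadipocytes no gene of 17129 passed the threshold (0% called by edgeR), and none of the 38 collagens tested did. At an unadjusted p under 0.05 there were 496 genes (2.9%) and 4 collagens, and DESeq2 called 4 genes (0.0234%), 1 of them Col6a4. Of the 38 collagens 21 had a positive fold change, with a median of 0.05. Col1a1 stood at -0.06 ± 0.47, Col3a1 at 0.35 ± 0.46, Col4a1 at 0.27 ± 0.28 and Col6a1 at -0.17 ± 0.30. A nominal 95% interval of Col1a1, from a normal approximation to its standard error, ran from -0.97 to 0.85. It is too narrow for so few samples.

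The collagen with the smallest p was Col6a4, an alternative to the alpha 3 chain of type VI collagen. It had 0.764, 0.302, 0.551 and 0.393 FPKM in MS preadipocytes, against 0.640, 10.3, 0.672 and 3.61 FPKM in control preadipocytes 1 to 4 (log2 fold change -3.24 ± 0.79, edgeR adjusted p = 0.973, DESeq2 adjusted p = 0.0327). Only control libraries 2 and 4 were high, and without control library 2 the value was -2.08. Both low-fat libraries were in the high range, at 6.00 FPKM (MS) and 5.13 FPKM (control). Next were Col27a1 (0.64 ± 0.19), Col17a1 (-1.53 ± 0.62) and Col4a6 (-1.46 ± 0.60), each with edgeR adjusted p = 0.973. Col17a1, the hemidesmosome collagen of epithelia, had 1.23 and 1.06 FPKM in the near-identical control libraries and 0.131 to 0.308 FPKM in the other 6. Urothelial markers summed to 522 FPKM in each of that pair and to 1.75 to 26.4 FPKM in the other 6, with Dsg3 at 0 in all 8, and their part in Col17a1 was not tested. Without the pair Col17a1 stood at -0.42.

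Within MS preadipocytes several collagens, chosen after their values were seen, split by library. Libraries 3 and 4 had 1918 and 2042 FPKM of Col3a1, against 844 and 1206 FPKM in libraries 1 and 2. Their Col28a1 level was also higher, at 7.84 and 7.55 FPKM against 2.28 and 3.76 FPKM. Col14a1, Col6a6, Col4a5 and Col4a6 went the other way, for example Col6a6 at 8.42 and 4.92 FPKM in libraries 3 and 4 against 18.5 and 16.7 FPKM in libraries 1 and 2. Macrophage markers summed to 3582 and 4353 FPKM in libraries 3 and 4, against 1648 and 760 FPKM in libraries 1 and 2. Other marker sums were lower in libraries 3 and 4. Progenitor markers stood at 1991 and 1663 FPKM against 2940 and 4475 FPKM, and mesothelial markers at 35.8 and 58.9 FPKM against 197 and 218 FPKM. Mural, endothelial, urothelial and adipocyte sums were lower too, while Schwann cell and lymphocyte sums overlapped. The part of any of these cells in the split was not tested. Without libraries 3 and 4 the stress value of Col3a1 was -0.29 and that of Col4a6 -0.78. These groups of libraries were seen in the data and are not groups of the study.

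In adipocytes no gene of 14485 passed (0% called by edgeR), including none of the 29 collagens tested. At an unadjusted p under 0.05 there were 417 genes (2.88%) and 1 collagen, and DESeq2 called 9 genes and no collagen. Of the main chains Col1a1 stood at -0.64 ± 0.44, Col3a1 at -0.35 ± 0.61, Col4a1 at 0.36 ± 0.38 and Col6a2 at -0.75 ± 0.38. Col12a1 had 1.13, 2.51 and 10.6 FPKM in MS adipocytes, against 0.731, 1.62 and 1.18 FPKM in control adipocytes (log2 fold change 2.05 ± 0.72, edgeR adjusted p = 0.9996). Without MS library 3 the value was 0.61. Col18a1 (-0.75 ± 0.34) and Col27a1 (1.39 ± 0.64) came next. Col18a1 had 21.8, 15.4 and 16.9 FPKM in MS adipocytes against 30.9, 23.3 and 40.3 FPKM in control adipocytes. The highest control values were those of the low-complexity libraries 1 and 3. These libraries also had the highest urothelial (149.6 and 73.9 FPKM) and mesothelial (78.5 and 53.1 FPKM) marker sums of the adipocyte libraries. Their mural sums were the highest as well (474 and 539 FPKM), and their endothelial sums were the lowest and the highest (214 and 831 FPKM). MS library 2, the next lowest in complexity, had the lowest Col18a1 level. The part of low complexity, or of urothelial, mesothelial, mural or endothelial cells, in Col18a1 was not tested.

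**Figure D5:**
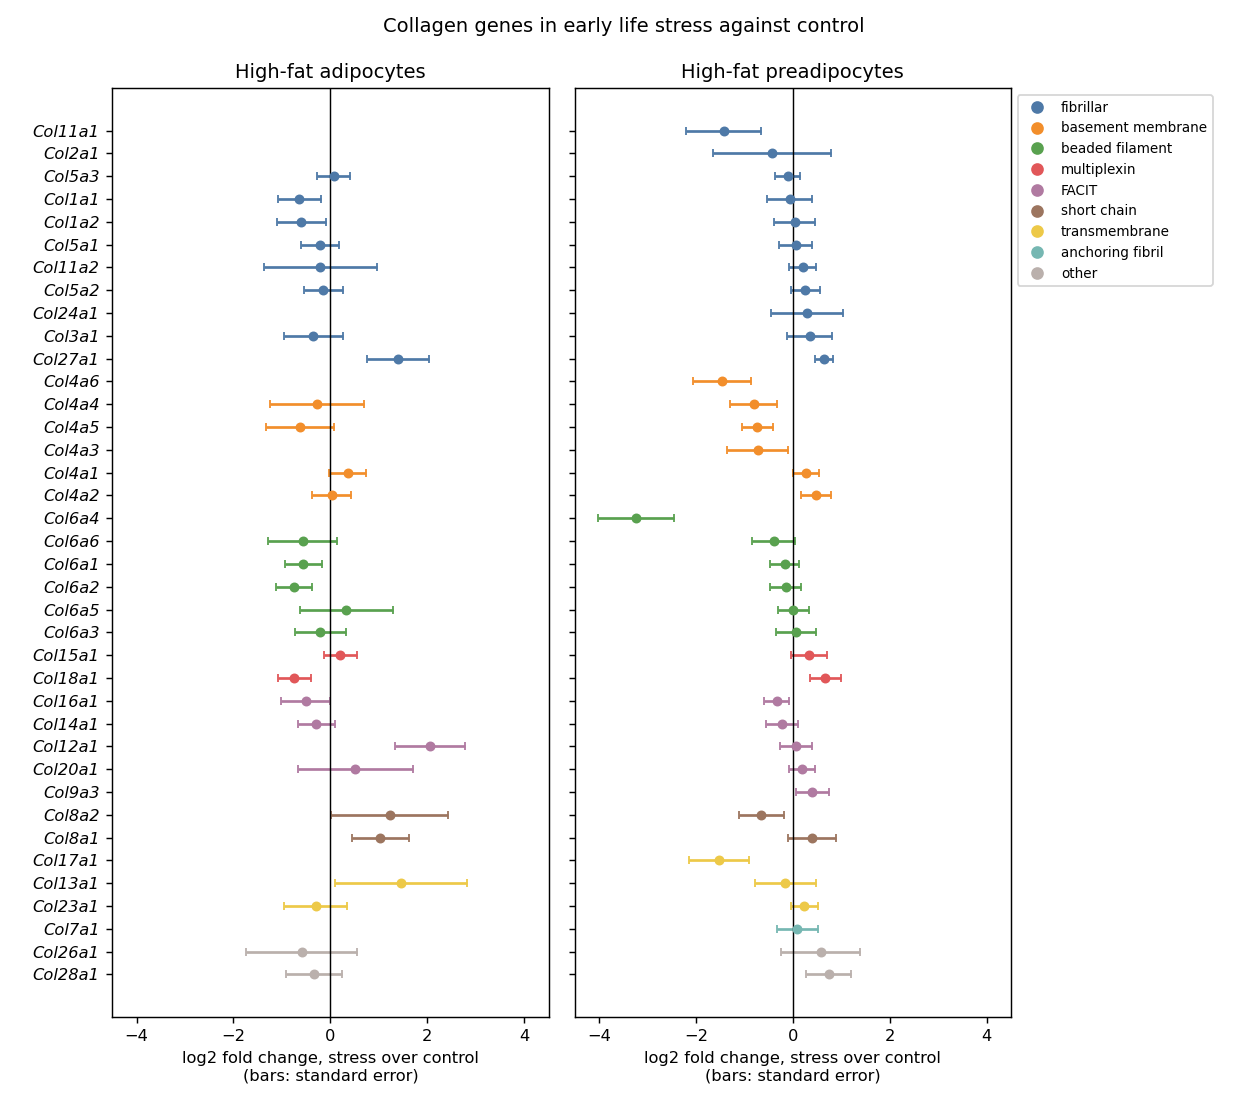
Log2 fold change of MS over control for collagen genes in high-fat adipocytes (left) and preadipocytes (right), with bars for the standard error, grouped by class. No gene passed the adjusted threshold in either fraction. Genes without a point on the left did not pass the expression filter in adipocytes.

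Whether the stress difference itself differed between fractions was tested with an interaction term. No gene of 17948 passed (0% called by edgeR), with 873 genes (4.86%) and 4 of 38 collagens at an unadjusted p under 0.05 and 3 genes called by DESeq2. For Col18a1, whose adipocyte values are given above, the levels were 28.3, 49.4, 58.4 and 62.7 FPKM in MS preadipocytes against 21.3, 33.0, 22.999 and 39.4 FPKM in control preadipocytes. The interaction was -1.37 ± 0.44 (edgeR adjusted p = 0.934), and -1.02 both without control adipocyte libraries 1 and 3 and without MS preadipocyte libraries 3 and 4. Col6a4 (5.11 ± 1.47), Col12a1 (1.99 ± 0.87) and Col24a1 (-5.39 ± 2.39) had edgeR adjusted p = 0.934 as well. Col24a1 had 0 reads in every MS adipocyte library, so its value depends on the prior count and is not a bound.

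The diet comparison set 8 high-fat preadipocyte libraries (7 samples) against 2 low-fat ones, with treatment as a covariate. No gene of 18468 passed in edgeR (0% called), with 2360 genes (12.8%) and 4 of 38 collagens at an unadjusted p under 0.05, whereas DESeq2 called 422 genes (2.29%) and 1 collagen. That collagen was Col26a1, with 16, 30, 33 and 48 reads in MS and 3, 22, 3 and 44 reads in control high-fat libraries, against 2 and 1 reads in the MS and control low-fat libraries (4.14 ± 1.18, edgeR adjusted p = 0.320, DESeq2 adjusted p = 0.0230). Col4a2 and Col4a1 had the highest fold changes of the main chains, at 0.70 ± 0.33 (edgeR adjusted p = 0.407) and 0.56 ± 0.29 (edgeR adjusted p = 0.439). Col4a1 had 302 and 344 FPKM in the MS and control low-fat libraries, inside the high-fat range of 267 to 573 FPKM. Col6a4 (-2.41 ± 0.92), Col8a1 (1.36 ± 0.53) and Col11a2 (0.74 ± 0.30) had the next smallest p, all with edgeR adjusted p of 0.352 to 0.370. Col6a4 stood at -0.10 without the MS low-fat library. Col1a1, Col3a1 and the 3 main type VI chains lay between -0.03 and 0.34.

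On the low-fat diet there was 1 library per treatment and no test. The log2 ratio of MS to control CPM (counts scaled to library size) had a median of -0.01 over the 38 collagens compared, against -0.03 over 18468 genes, and 30 of the 38 lay within 0.5 of 0. Col1a1 had 651 FPKM in the MS and 604 FPKM in the control library, and Col3a1 1022 and 1121 FPKM. Genes within 0.5 of 0 were not counted over all genes. Past a log2 ratio of 1 in either direction were 4 of the 38 collagens and 2148 of the 18468 genes. Those 4 collagens all had low levels: Col13a1 (2.33), Col17a1 (1.202), Col2a1 (-1.203) and Col9a3 (-1.19).

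The 8 collagens outside the fraction test were near the limit of detection. Col9a1, a cartilage FACIT, had no read in any of the 16 libraries, and the floor of 3 counts per library covers counting error only. Col11a1, another cartilage collagen, had 168 reads in preadipocytes, present in all 10 libraries, and 0 in adipocytes. Col2a1, the main collagen of cartilage, had 2 reads in adipocytes and 138 in preadipocytes. Col10a1, made by hypertrophic cartilage, had 26 reads in 4 of 6 adipocyte libraries against 4 reads in 2 of 10 preadipocyte libraries. It overlaps Nt5dc1, which had 4608 reads, so its reads are uncertain. Col25a1, Col9a2, Col22a1 and Col19a1 had 26, 10, 14 and 0 reads in adipocytes and 25, 46, 39 and 12 reads in preadipocytes.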

How the data were processed

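Gene-level read counts and FPKM values for each library were deposited by the authors, with gene lengths and coordinates beside them (gene length in bases is the other deposited quantity used). STAR 2.6.1d, DESeq2 1.20.0 and edgeR 3.24.3 and the builds mm10 and GRCm38 are named per the submitters' processing notes. Which program counted reads, with which strand setting and annotation release, is not given in the sources used here. Without known strand, reads of overlapping genes may be shared, and 28 of the 44 members overlap another gene. Col4a1 and Col4a2 overlap by only 22 bases. Among called members, Col9a3 overlaps Tcfl5 on the other strand, with 22.1% of the reads of Col9a3. Col4a3 overlaps C430014B12Rik on the other strand, with 13.3% of the reads of Col4a3. Each deposited FPKM was the count over gene length and library total, multiplied by a factor that varied by library from 0.860 to 1.26, so they are scaled between libraries. Coordinates are those of the deposited table, which match GENCODE M21 for all 44 members.

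Counts were tested with edgeR 4.0.16 (TMM, filterByExpr, robust quasi-likelihood fit, F test, Benjamini-Hochberg adjustment over all genes tested, threshold 0.05) in R 4.3.3, after tests on simulated data. The near-identical pair was summed. Alternatives were RLE size factors, no expression filter, DESeq2 1.42.0, limma 3.58.1 on log2(FPKM + 1), each library left out, the pair kept as 2 libraries, single treatments, the low-complexity libraries left out, all 16 libraries in 1 fit, and a replicate block; the fits without MS preadipocyte libraries 3 and 4 and the chain ratios were added after seeing the data. The low-fat pair used CPM with a prior count of 2. All tested members may be named in the fraction comparison, and elsewhere those past the threshold or the 4 with the smallest p, plus the main chains. Of each other gene list the 3 called genes with the largest fraction changes are named, except 1 that is not reported here. The members, gene lists and marker lists were chosen with earlier results of these data known. Marker lists of Schwann cells, lymphocytes and mesothelium were also computed: of 10 genes each, 1, 0 and 0 were higher and 4, 8 and 10 lower in adipocytes, and of 10 macrophage markers 0 were higher and 1 lower. Of the 10 urothelial markers 6 could be tested and 1 was lower.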

Additional observations from a re-analysis of the deposited data

Results flagged for a closer look

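In MS high-fat preadipocytes, the only group counted as 4 samples, the highest or lowest library was set against the range by Dixon's criterion. Of 37 values 2 were flagged, where chance flags about 1 in 20. Col5a2 in MS high-fat preadipocytes had library 1 low, at 95.3 FPKM against 138 to 145 FPKM in the other 3, with a gap of 0.845 of the range. Col27a1 in the same group had library 2 high, at 7.16 FPKM against 5.46 to 5.68 FPKM in the other 3, with a gap of 0.870 of the range.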

How the results depend on the processing

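Of the 33 fraction calls, 25 held in every alternative fitted and 8 (Col4a2, Col6a4, Col11a2, Col15a1, Col17a1, Col18a1, Col20a1, Col23a1) were lost in at least 1. The count of lower collagens ran from 31 to 35 with libraries left out and was 26 in control and 29 in MS libraries alone. Without the expression filter 1 collagen, Col10a1, was called higher (3.94, adjusted p = 0.00703), and Col11a1 (-7.11) and Col2a1 (-4.69) were called lower. Several fits with a library left out also called Col11a1 and Col2a1 lower, so some of the counts up to 35 include them. Col11a1 had 0 reads in adipocytes, so its value depends on the prior count. In control libraries alone 5998 genes were called. Fraction values of Col18a1 (0.038, control alone), Col12a1 (0.30, MS alone), Col13a1 (0.35, MS alone) and Col26a1 (0.029, replicate block) changed sign. So did the log2 ratio difference of Col5a1 to Col5a2 in MS libraries alone (0.083).

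For stress in preadipocytes, DESeq2 called 4 genes and 1 lower collagen (Col6a4), and the replicate block 2 genes. The stress value of Col1a1 was 0.018 with limma, 0.14 with the pair kept as 2 libraries and 0.25 with the replicate block, from -0.42 to 0.29 with single libraries left out. Col6a1 was 0.092 with the block and -0.46 to 0.022 with libraries left out, and Col3a1 was -0.29 without MS libraries 3 and 4. For stress in adipocytes 51 genes and 1 collagen (Col12a1, 2.07) were called without the expression filter, 9 genes by DESeq2, and 0 to 9 with libraries left out, and Col3a1 ran from -0.80 to 0.21. DESeq2 called 3 genes for the interaction. For diet, 422 genes and 1 collagen (Col26a1) were called by DESeq2, 1 gene without the filter and 0 to 1 with libraries left out. The diet value of Col1a1 was -0.11 without MS libraries 3 and 4, and Col6a1 ran from -0.12 to 0.10. The cause of these changes was not tested.

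By FPKM rather than counts, the collagen share was 0.274%, 0.256%, 1.81%, 1.74%, 1.55% and 1.77% in MS and control adipocytes, MS and control high-fat preadipocytes, and the MS and control low-fat libraries. Same-numbered libraries correlated from -0.25 to 0.18 across fractions, -0.06 to 0.44 across treatments in preadipocytes and -0.32 to 0.02 in adipocytes. Libraries of different number were not compared, so these values cannot tell whether the numbers mark pairs. The main fits did not take the numbers as pairs. With the replicate block 31 collagens were lower between fractions, and Col4a2 (-0.47, adjusted p = 0.126), Col15a1 (-0.41, adjusted p = 0.231), Col18a1 (-0.40, adjusted p = 0.343) and Col23a1 (-0.96, adjusted p = 0.0731) were among the calls lost. Depth limits the 12 collagens under 1 FPKM in every library.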
